A study of Mus musculus with 4 samples.

Results

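The Slitrk6/Otol1-positive otic epithelium comprised 632 cells out of 5278 cells of the otic gate and 14985 cells that passed the cell filter, in 4 single-cell RNA libraries of mouse embryos. Of these, 299 were in the control 1 library, 255 in control 2, 17 in cKO 1 and 61 in cKO 2. All embryos carried Pax2-Cre and Rosa26-GFPf/+, and the conditional knockout (cKO) embryos were in addition Tbx2f/f and Tbx3f/f. They were Swiss-Webster at E10.5, with 34 to 36 somites. Every group therefore had Pax2-Cre, a Cre recombinase driven in the otic placode and some neighbouring tissue, and a GFP reporter that it switches on. Dissected otic vesicles were pooled, with the cochleovestibular ganglion and some neighbouring neural tube and pharyngeal tissue, and GFP-positive, DAPI-negative cells were sorted. The labels name 3 control and 2 cKO embryos without saying how they were divided among the libraries, so spread between libraries may be technical. Members of the cKO libraries did not, however, hold the same mix of male and female cells, by the values of the female RNA Xist given below. P-values for genotype rest on the spread between libraries. Those between groups of cells rest on how far the difference between the groups varies from library to library.

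A cell entered the otic gate with at least 1 UMI (a counted RNA molecule) of Epcam, at least 3 UMIs of Hmx2, Hmx3, Lmx1a and Oc90 together, no Trp63 and at most 2 UMIs of Neurod1. Within the gate, a member had at least 2 UMIs of Slitrk6, at least 1 of Otol1, and at most 1 UMI each of Otx1 and Otx2 together, Rorb, Neurog1 and Sfrp2. The members were thus chosen by the measured UMIs of 14 genes, whose levels are described and not tested. The genes Slitrk6, Otol1, Fgf20, Tgfb2 and Gata3 had been given as markers of these cells.

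As background, the otic vesicle is a closed epithelial sac that forms the whole inner ear, and parts of its wall become prosensory: they will give rise to hair cells and supporting cells. SOX2 and the Notch ligand JAG1 mark and maintain prosensory epithelium, LFNG modifies Notch receptors, and FGF10 and FGF20 are ligands with roles in prosensory growth and differentiation. SLITRK6 is a leucine-rich repeat transmembrane protein known from the developing ear, where it takes part in innervation. OTOL1 (otolin) is a collagen-like protein of the extracellular matrix of otoconia. TBX2 and TBX3 are T-box transcription factors that mostly repress transcription.

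The promoters of both selecting genes and of Tgfb2, the marker with the largest difference outside the rule, are shown because the cells are named after them. Each is the 250 bases before the RefSeq start on GRCm38.p6, written on the gene's strand, at chr14:110755150-110755399 (minus) for Slitrk6, chr3:70007363-70007612 (plus) for Otol1 and chr1:186705990-186706239 (minus) for Tgfb2.
Slitrk6: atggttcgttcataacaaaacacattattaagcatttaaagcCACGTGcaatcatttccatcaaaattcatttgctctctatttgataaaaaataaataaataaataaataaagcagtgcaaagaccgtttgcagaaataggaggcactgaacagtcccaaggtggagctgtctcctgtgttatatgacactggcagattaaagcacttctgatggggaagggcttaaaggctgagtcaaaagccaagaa
Otol1: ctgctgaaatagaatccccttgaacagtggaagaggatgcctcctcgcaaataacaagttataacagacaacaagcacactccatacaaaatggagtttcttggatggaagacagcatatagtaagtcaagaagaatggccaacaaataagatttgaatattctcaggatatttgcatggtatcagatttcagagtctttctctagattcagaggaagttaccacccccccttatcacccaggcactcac
Tgfb2: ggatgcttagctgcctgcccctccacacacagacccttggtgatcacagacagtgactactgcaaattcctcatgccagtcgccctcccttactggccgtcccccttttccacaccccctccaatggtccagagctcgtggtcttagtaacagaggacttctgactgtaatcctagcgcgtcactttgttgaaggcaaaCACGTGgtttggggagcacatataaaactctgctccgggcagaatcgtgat
Capitals mark the E box CACGTG, a site class of basic helix-loop-helix factors, found once for Slitrk6 and once for Tgfb2 and held by 6.02% of 32851 promoter windows of this length. On either strand, the T-box site AGGTGTGA (1.12% of windows) and the shorter form inside it, GGTGTGA (3.33%), were not found in these 3 windows. The GATA motif AGATAA (9.99%) and the SOX core ACAAT (27.7%) were not found either. These are matches of letters, not sites of binding.

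Members made up 17.7% of the otic-gate cells in control 1 (95% exact binomial interval 15.9 to 19.7%) and 16.9% in control 2 (15.0 to 18.9%). They made up 2.20% in cKO 1 (1.29 to 3.51%) and 4.65% in cKO 2 (3.57 to 5.93%), so both cKO libraries lay below both control libraries. The shares were not tested, because the genes of the rule set them. The otic gate they are taken over also moved with genotype: it kept 41.9% and 40.2% of the filtered control cells and 23.1% and 34.0% of the cKO cells. The Slitrk6 step kept 44.8% and 35.9% of the control and 33.1% and 33.9% of the cKO cells. The genotypes parted more at Otol1: of the cells with enough Slitrk6, 59.5% and 66.6% passed in control and 33.7% and 38.2% in cKO. They parted most at Sfrp2, a secreted WNT modulator, where 82.8% and 83.6% of the control cells passed but 25.4% and 42.1% of the cKO cells. Across the other otic-gate cells, Sfrp2 was found at 20.3 and 19.6 CPM (UMIs of the gene per 1000000 UMIs of the summed cells) in control and 115.3 and 93.1 CPM in cKO. With no limit on Sfrp2, the members would number 361, 305, 67 and 145, or 21.4%, 20.2%, 8.69% and 11.04% of the gate.

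**Figure D1:**
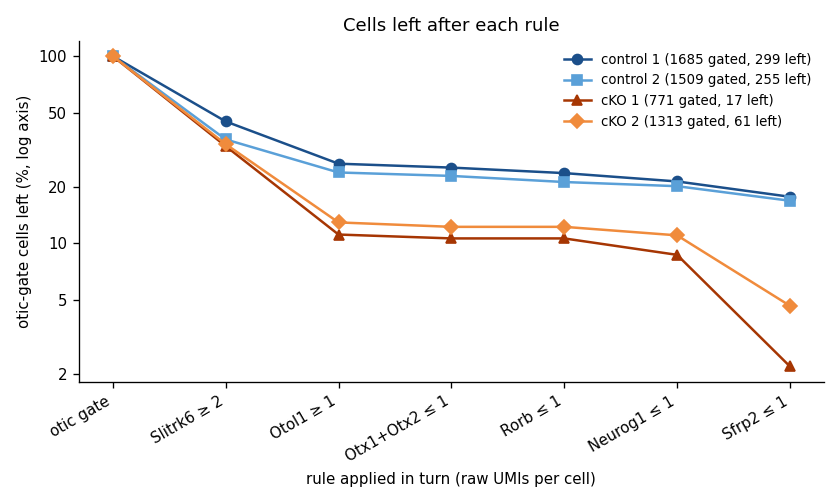
Percent of otic-gate cells left (log axis) after each rule is applied in turn, one line per library. The control lines end at 17.7% and 16.9% and the cKO lines at 2.20% and 4.65%, with the steps at Otol1 and Sfrp2 steeper in cKO.

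Members carried a median of 7 and 5 UMIs of Slitrk6 in the control libraries and 4 in each cKO library. For Otol1 the medians were 3, 4, 2 and 1 in the order control 1, control 2, cKO 1, cKO 2, which is the order used for every list of 4 values. In CPM, Slitrk6 in members was found at 225.2, 202.4, 123.9 and 134.1, and Otol1 at 130.5, 153.2, 71.2 and 55.8. Other otic-gate cells often held these genes too: Slitrk6 was present in 50.4%, 38.8%, 52.1% and 50.9% of them and Otol1 in 26.6%, 28.7%, 18.3% and 22.2%. The boundary is therefore a cut through a range. In control 1, the 34 members with exactly 2 Slitrk6 UMIs held Tgfb2 at 33.6 CPM and Sox2 at 130.0 CPM, against 35.5 and 102.1 CPM in the 55 cells with 1 Slitrk6 UMI that met all other limits. In control 2, the 43 members at 2 UMIs held Tgfb2 at 40.5 CPM and Sox2 at 104.6 CPM. The 50 cells at 1 UMI held 51.7 and 107.1 CPM. At the Otol1 limit in control, 79 and 61 members had exactly 1 UMI. They held Tgfb2 at 43.6 and 56.5 CPM and Sox2 at 154.8 and 144.7 CPM. In the 226 and 121 cells with no Otol1 but otherwise alike, Tgfb2 was at 38.6 and 41.9 CPM. Sox2 was at 86.8 and 85.7 CPM there. At the Sfrp2 limit in cKO, the cells just past the rule had less Tgfb2: 2.73 and 6.43 CPM in the 50 and 84 cells with 2 or more Sfrp2 UMIs, against 45.6 and 27.1 CPM in the members. Their Sox2 levels were nearer to those of the members, at 148.0 and 177.1 against 179.5 and 197.8 CPM.

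The members were deeply sampled cells, with median UMIs of 34385, 31824, 41874 and 36783, close to the other otic-gate cells at 32101, 30799, 38910.5 and 36355. Their summed UMIs were 11094145, 8597105, 701922 and 2401005, so the cKO 1 sum was the thinnest. Mitochondrial UMIs had medians of 2.15%, 2.68%, 1.20% and 1.23%, lower in both cKO libraries. No barcode among the members was shared between libraries. All 14 otic epithelial markers were detected in the members of every library, but 5 of them are genes of the rule, so only the other 9 bear on the label. Pharyngeal endoderm markers summed to at most 0.0901 CPM and erythroid markers to at most 0.116 CPM. The 7 surface ectoderm markers summed to 1.98 to 5.70 CPM, with Tfap2a detected in every library, Krt5 and Krt14 at 0 in every library, and Trp63 kept at 0 by the rule. Markers listed for neural crest or glia were present, at sums of 231.5, 257.2, 99.7 and 138.7 CPM in members and 237.3, 248.1, 119.2 and 137.6 CPM in the other otic-gate cells. The list holds Sox10, which is also on the otic list, and its Foxd3 was at 0 in 3 of the 4 libraries. Placodal neuron markers summed to 79.5, 91.7, 57.0 and 57.1 CPM and endothelial markers to 50.5, 34.7, 52.7 and 40.4 CPM, of which Egfl7 alone made up 42.0, 31.9, 52.7 and 40.0 CPM. Leukocyte markers were present in control: 1 member of control 1 held 88 of the 102 UMIs of the 6 leukocyte markers there, and 2 members of control 2 held 259 of 270.

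Of the markers given for these cells, Tgfb2 and Fgf20 were higher in members than in the other otic-gate cells of the control libraries, and Gata3 was lower. Members and lists were chosen with earlier results of these data known, so p-values here and for the lists below are not independent evidence. Tgfb2, a secreted ligand of the TGF-beta family, was found at 97.3 and 91.7 CPM in members and 31.8 and 25.3 CPM in the others, a log2 difference of 1.74 ± 0.06 (SE; edgeR adjusted p = 4.5e-22). Fgf20 was sparse, at 5.14 and 3.49 CPM against 1.43 and 1.82 CPM, a log2 difference of 1.43 ± 0.27 (adjusted p = 0.000144). Its call was lost with DESeq2 and without control 1. Gata3, a zinc finger transcription factor of the otic epithelium, was found at 48.1 and 42.3 CPM in members and 74.8 and 67.3 CPM in the others, a log2 difference of -0.63 ± 0.06 (adjusted p = 1.48e-10). In these libraries Gata3 therefore goes against the marker list. Among otic-gate cells it was most abundant in the Rorb-positive cells (at most 1 UMI of Otx1 and Otx2 and at least 2 of Rorb), at 162.3 and 202.5 CPM.

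Across all genes, 1727 of 14107 differed between members and other otic-gate cells of the control libraries at an adjusted p under 0.05 (12.2%), 857 higher (6.07%) and 870 lower (6.17%). More than 2-fold differences were found for 103 genes higher and 344 lower in members. DESeq2 called 393 genes. A joint fit with the cKO libraries called 1540 genes, and in that fit 594 were called without control 1 and 536 without control 2, which leaves 1 control library assumed to vary like the rest.

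Prosensory genes leaned towards the members. Of the 22 genes on the prosensory list, 15 were higher in members (6.07% of all genes were), 2 were lower and 5 were not called; the list's median log2 difference was 0.56, against 0.01 over all genes. The list shares Fgf20 and Gata3 with the markers given for these cells. With DESeq2, 11 were higher and 1 lower, and without either control library 13 were higher and 1 lower.

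Sox2, the transcription factor that marks prosensory cells, was found at 225.2 and 182.9 CPM in control members and 82.3 and 68.3 CPM in the other otic-gate cells. Both member values exceeded both others, with a log2 difference of 1.46 ± 0.04 (adjusted p = 6.28e-25). Lfng, a glycosyltransferase acting on Notch receptors, was at 40.5 and 36.1 CPM against 13.3 and 12.1 CPM (log2 difference 1.61 ± 0.08, adjusted p = 6.26e-18). The growth factor gene Fgf10 was at 25.9 and 25.8 CPM against 9.24 and 6.81 CPM (1.69 ± 0.10, adjusted p = 2.03e-15). Jag1 was at 62.0 and 67.5 CPM against 34.4 in each library (0.93 ± 0.06, adjusted p = 2.61e-14). The Notch target genes Hes1 and Hey1, which encode basic helix-loop-helix repressors, differed by 0.91 ± 0.05 and 0.87 ± 0.07. Prox1, a homeobox gene of later prosensory and supporting cells, differed by 0.81 ± 0.10, and the BMP ligand gene Bmp4 by 0.71 ± 0.06. Smaller differences were found for Etv4 (0.60), Eya1 (0.52), Isl1 (0.51), Etv5 (0.48) and Notch1 (0.18). Notch1 and Fgf9 (-0.23) lost their calls without either control library and with DESeq2. Genes of the list that were not called were Mfng (0.22), Fgfr1 (0.17), Cdkn1b (0.04), Hey2 (0.00) and Hes5 (-0.23). Cdkn1b, the cell cycle inhibitor of differentiating prosensory cells, was at 36.2 and 32.2 CPM in members and 35.1 and 32.3 CPM in the others.

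**Figure D2:**
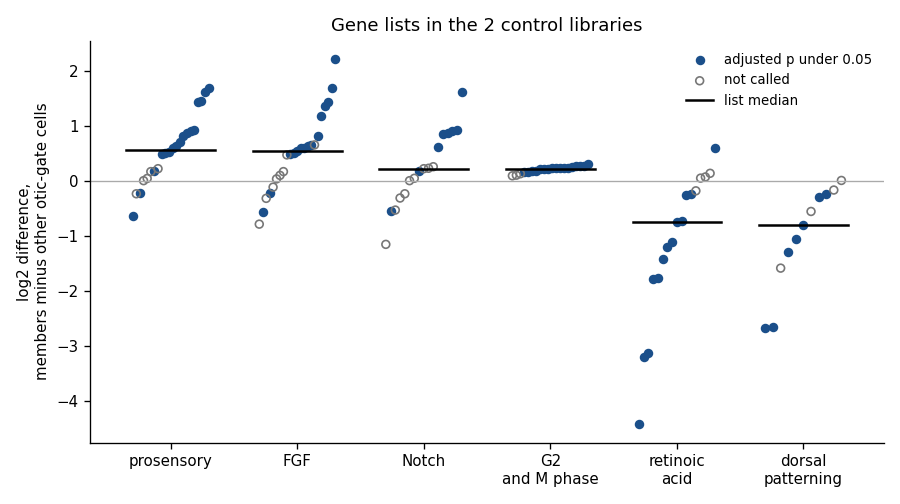
Log2 difference of members minus other otic-gate cells in the control libraries, one point per gene of 6 lists; filled points have an adjusted p under 0.05 and bars are list medians. Prosensory and FGF genes centre above 0, with medians of 0.56 and 0.53, and retinoic acid genes below 0, with a median of -0.74.

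On the FGF list, 13 of 23 genes were higher in members and 2 lower (6.07% and 6.17% of all genes were), with a median of 0.53. This list shares Fgf10, Fgf20, Etv4 and Etv5 (higher), Fgf9 (lower) and Fgfr1 (not called) with the prosensory list, so these genes are counted in both. Fgf3, a ligand of early otic induction and neurogenesis, was at 21.7 and 13.7 CPM in members and 4.91 and 2.78 CPM in the others (log2 difference 2.21 ± 0.12, adjusted p = 3.61e-16). Fgf15 was low, at 3.34 and 1.51 CPM against 1.30 and 0.565 CPM (1.36 ± 0.34), and its call was lost with DESeq2 and without control 1. Of the 17 Notch pathway genes, 7 were higher and 1 lower, and the list overlaps the prosensory list in Lfng, Mfng, Jag1, Hes1, Hes5, Hey1, Hey2 and Notch1. With DESeq2 the FGF list had 7 genes higher and 0 lower, and the Notch list 5 higher and 0 lower.

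Retinoic acid genes ran the other way, with 12 of 17 lower in members and 1 higher (6.17% of all genes were lower and 6.07% higher). Aldh1a2, which encodes a retinoic acid synthesizing enzyme, was at 0.811 and 2.56 CPM in members and 13.8 and 16.5 CPM in the others (log2 difference -3.20 ± 0.19). Cyp26a1 and Cyp26c1, which encode enzymes that break retinoic acid down, were also lower, by log2 differences of -3.13 ± 0.19 and -4.41 ± 0.52. Genes of synthesis and of breakdown were thus both lower. Aldh1a3 was the gene of the list that was higher (0.60). The dorsal patterning list had 0 genes higher and 7 of 11 lower, among them Msx2 at 14.7 and 14.3 CPM against 35.3 and 36.7 CPM (-1.28 ± 0.09). In the ventral and lateral list, 2 genes were higher and 5 of 10 lower, including Gsc (-5.55), Six2 (-1.17) and Tbx1 (-0.87). Among 28 WNT pathway genes 9 were higher and 10 lower. The lower ones included the ligand Wnt4, at 0.901 and 1.74 CPM against 13.4 and 20.5 CPM (-3.64 ± 0.18), and the secreted WNT agonist genes Rspo1 (-4.53), Rspo2 (-3.60) and Rspo3 (-2.52). The Hedgehog list had 1 of 10 genes higher and 2 lower.

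The next lists are to be read against 6.07% of all genes higher in members and 6.17% lower. Among 29 genes of TGF-beta and BMP signalling, 8 were higher and 5 lower. Tgfb2 led the higher genes, and Tgfb1, at 3.79 and 1.51 CPM against 0.755 and 0.688 CPM, had a log2 difference of 1.82 ± 0.36 (adjusted p = 0.000311). Leukocytes express Tgfb1: in control 2, 11 of the 13 Tgfb1 UMIs lay in the 2 members rich in leukocyte markers, but in control 1 only 2 of 42 did. The gene's call was lost with DESeq2, without control 1, and with the highest doublet scores left out. The lower genes included the secreted BMP antagonists Nog (-1.92) and Bmper (-1.004), the ligand Bmp5 (-1.82), and Fst (-2.56), which encodes the activin antagonist follistatin. The calls of Nog and Ntrk3 were lost with DESeq2 and without control 2, and that of Bmper with DESeq2 and without control 1. Of 16 neuroblast genes, 4 were higher, including Ebf3 at 24.0 and 22.7 CPM against 8.76 and 9.46 CPM (1.38 ± 0.09), and 4 were lower, including the neurotrophin receptor genes Ntrk2 (-3.53) and Ntrk3 (-1.85). In the otic matrix list 3 of 11 genes were higher and 3 lower: Otog, for the tectorial and otolithic membrane protein otogelin, was higher by 0.64 (a call lost with DESeq2 and without either control library) and the cartilage matrix gene Cnmd lower by -1.65. Of 22 other genes of leucine-rich repeat surface proteins, 2 were higher, near the share of all genes, and 7 were lower. Epithelial adhesion genes were split, with 4 of 15 higher and 7 lower; the keratin genes Krt8 and Krt18 were lower, by -0.60 ± 0.04 and -0.76 ± 0.03.

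Cell cycle and stress lists are to be read against the same 6.07% of all genes higher and 6.17% lower. Of the 20 genes of the G2 and M phases, 17 were called higher in members, but by little. Their median log2 difference was 0.22, and Mki67, a marker of cycling cells, was at 248.1 and 207.05 CPM against 192.9 and 188.8 CPM (0.28 ± 0.04). The count was 1 with DESeq2, 0 without control 1 and 14 without control 2. Of the 20 S phase genes, 3 were higher and 0 lower. Cyclin D1 (Ccnd1) was higher, by 0.46 ± 0.03, and the CDK inhibitor genes Cdkn1a and Cdkn1c were lower, by -0.53 ± 0.05 and -0.13 ± 0.02, the latter a call lost without either control library. Of 10 dissociation stress genes, 2 were higher and 1 lower, with a median of -0.02.

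By the fixed rule (at least 20 CPM in the higher group and the same direction in each library), the 10 largest rises outside the selecting genes were Tgfb2, Fgf10, Lfng, Pou3f3, Sox2, Ebf3, Scrn1, Hspa2, Rassf9 and Enc1. Pou3f3, a POU domain transcription factor gene, was found at 26.4 and 45.4 CPM in members and 9.96 and 15.4 CPM in the others (log2 difference 1.51 ± 0.08, adjusted p = 1.18e-16). The 10 largest falls were Ttr, Nrp2, Ehbp1, Fst, Rspo3, Tent5a, Capn6, Slc30a4, Adamts9 and Krt19. Nrp2, for the semaphorin and VEGF co-receptor neuropilin 2, was at 3.15 and 4.42 CPM against 23.4 and 30.1 CPM (-2.80 ± 0.13). Of these 10, Ttr (transthyretin) had the largest log2 difference at -5.59 ± 0.18, but the control libraries differed widely, with 4.15 and 84.6 CPM in the other otic-gate cells.

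Members were also compared in control with 2 other classes of the otic gate. Against Otx-positive cells most called prosensory genes were higher in members, and against Rorb-positive cells as many were lower as higher; the difference between these comparisons was not tested. Otx-positive cells (at least 2 UMIs of Otx1 and Otx2 together) numbered 315 and 321 in the control libraries, and Rorb-positive cells 60 and 73. Against Otx-positive cells, 1798 of 13197 genes were called (13.6%; 7.18% higher and 6.44% lower in members), and of the 22 prosensory genes 11 were higher and 2 lower. Against Rorb-positive cells, 670 genes were called (5.08%; 2.6% higher and 2.48% lower), and 5 prosensory genes were higher and 5 lower. DESeq2 called 985 and 446 genes in these comparisons. The low retinoic acid and dorsal patterning lists did not carry over to these classes. Of 17 retinoic acid genes, 5 were higher and 5 lower against Otx-positive cells, and 3 and 3 against Rorb-positive cells. Of 11 dorsal genes, 6 were higher and 2 lower against Otx-positive cells, and 3 and 1 against Rorb-positive cells. Of 26 WNT genes, 13 were higher and 6 lower, and 10 and 4, in the same order.

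Sox2 was highest in members, at 225.2 and 182.9 CPM, then in Rorb-positive cells at 153.1 and 147.7 CPM, the remaining otic-gate cells at 84.7 and 68.0 CPM, and Otx-positive cells at 58.9 and 47.8 CPM. No neighbouring classes overlapped in that order, and the tested gaps were 0.44 ± 0.07 against Rorb-positive cells (adjusted p = 0.000128) and 1.94 ± 0.06 against Otx-positive cells. Lfng did not part members from Rorb-positive cells, at 36.6 and 32.5 CPM there (log2 difference 0.15 ± 0.12, adjusted p = 0.615), but was far lower in Otx-positive cells at 8.83 and 6.33 CPM (2.33 ± 0.11). Jag1 was at 79.2 and 71.6 CPM in Rorb-positive cells, and the difference was not called (-0.21 ± 0.09, adjusted p = 0.239). Hes1, by contrast, was higher in members than in either class, with log2 differences of 1.21 ± 0.10 and 1.17 ± 0.07 against 44.9 and 42.6 CPM in Rorb-positive and 47.1 and 43.1 CPM in Otx-positive cells. Fgf10 was also higher than in either, by 1.58 ± 0.21 and 3.17 ± 0.17. Rorb-positive cells had more Gata3 (-2.01 ± 0.11), Isl1 (-1.003 ± 0.12), Hey2 (-1.18 ± 0.22) and Eya1 (-0.54 ± 0.07) than members. Otx-positive cells had more Hey2 (-1.12 ± 0.16) and Fgf9 (-0.68 ± 0.08). Bmp4 and Prox1 were higher in members than in Otx-positive cells, by 1.47 ± 0.15 and 1.90 ± 0.15. Their differences from Rorb-positive cells, 0.42 ± 0.19 and 0.53 ± 0.19, were not called (adjusted p = 0.276 and 0.119).

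**Figure D3:**
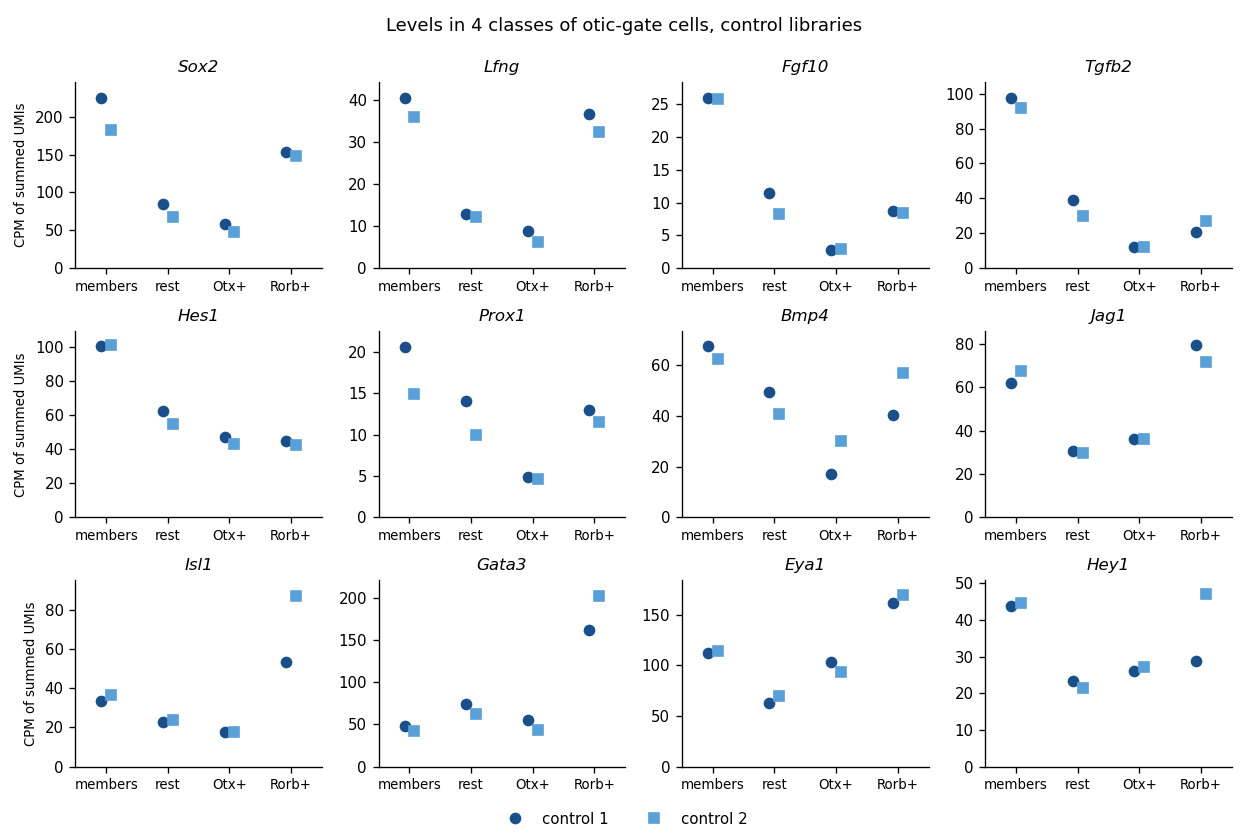
CPM of summed UMIs (axes from 0) of 11 prosensory genes and Tgfb2 in members, Rorb-positive, Otx-positive and remaining (rest) otic-gate cells; each point is 1 control library. Sox2, Fgf10, Tgfb2 and Hes1 are highest in members in both libraries, whereas Gata3, Isl1 and Eya1 are highest in Rorb-positive cells.

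Outside the prosensory list, Tgfb2 set the members apart from both classes, at 12.4 CPM in each library of Otx-positive cells (2.93 ± 0.11) and 20.6 and 27.2 CPM in Rorb-positive cells (1.97 ± 0.14). Prr15, a proline-rich protein gene, was at 43.5 and 38.7 CPM in members, 2.12 and 1.68 CPM in Otx-positive cells and 11.8 and 5.59 CPM in Rorb-positive cells. The homeobox gene Gbx2, of dorsal otic epithelium, was at 41.9 and 40.0 CPM in members, 3.00 and 2.05 CPM in Otx-positive and 17.5 and 12.2 CPM in Rorb-positive cells. Also higher against Otx-positive cells were Sp5 (4.33), Cntn5 (4.09), Dkk1 (3.95), Enc1 (3.51), Wnt6 (3.04) and Gchfr (2.59). Among the genes lower against them were Ttr (-7.43), Gsc (-7.25), Vmo1 (-6.91), Rspo2 (-5.25), Wnt4 (-5.22), Ntrk2 (-4.91), Cyp26a1 (-4.87), Ehbp1 (-4.39) and Zfp385b (-3.95). Against Rorb-positive cells, further rises were those of Scrn1 (1.84), Tmsb4x (1.84), Dlx5 (1.64), Cthrc1 (1.57), Gas1 (1.55) and Dlx6 (1.49). Among the falls were those of Fst (-3.42), Itih5 (-2.68), Car13 (-2.47), Emx2 (-2.12), Spp1 (-2.02), S100a13 (-2.01), Gata3, Crnde (-1.97) and Hsd11b2 (-1.96). The Hedgehog target genes Gli1 and Ptch1 were lower in members than in Rorb-positive cells as well, by -2.15 ± 0.21 and -1.22 ± 0.10. For Dkk1, higher in members than in Rorb-positive cells by 1.20 ± 0.30, the value without control 1 was -0.0407. The library control 1 thus decided that direction.

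Per cell, after every cell had been thinned to 10000 UMIs, 19, 18, 15 and 22 of the 22 prosensory genes were found in a larger share of members than of other otic-gate cells. The same count was not made over all genes, so these numbers have no background to be read against, and that of cKO 1 rests on 17 cells. Gata3 and Fgf9 went the other way in control: Gata3 was found in 32.4% and 26.9% of control members and 40.4% and 37.7% of the others, and Fgf9 in 29.4% and 28.1% against 33.7% and 38.5%. Sox2 had a UMI in 72.2%, 65.6%, 76.5% and 71.7% of members and in 38.2%, 29.2%, 49.3% and 49.5% of the others; unthinned, the member shares were 93.0%, 87.1%, 94.1% and 95.1%. In the leukocyte gate, cells that should lack the gene, the thinned share was 0% in each library, and unthinned it was 4.55%, 0%, 3.85% and 2.00%. The leukocyte gate held 39 to 52 cells per library, with median UMIs of 40855.5, 40046, 52844.5 and 37492, and its 0 values allow shares of up to 6.85 to 9.03% (95% exact binomial). Lfng was found in 28.1%, 25.3%, 47.1% and 48.3% of thinned members and in 7.94%, 9.59%, 23.1% and 31.7% of the others, against 0%, 7.69%, 3.85% and 4.17% in the leukocyte gate. Unthinned, 34.1%, 15.4%, 21.2% and 24.0% of leukocyte-gate cells held Lfng, so for this gene they are not cells that lack it. Fgf20 was found in 5.02%, 2.77%, 0% and 6.67% of thinned members and 1.31%, 1.46%, 4.16% and 2.40% of the others; the 0 of 17 cells in cKO 1 allow a share of up to 19.5% (95% exact binomial). Sox2 and Jag1 were found together in 32.8%, 37.5%, 41.2% and 40.0% of members and 12.9%, 10.2%, 18.9% and 18.0% of the others. None of Sox2, Jag1, Lfng and Fgf10 was found in 16.4%, 19.8%, 11.8% and 13.3% of thinned members, against 46.5%, 54.1%, 33.6% and 27.8% of the others. Thinning left out 0, 2, 0 and 1 members and 14, 24, 9 and 4 of the others as too shallow, and every interval covers counting error only.

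**Figure D4:**
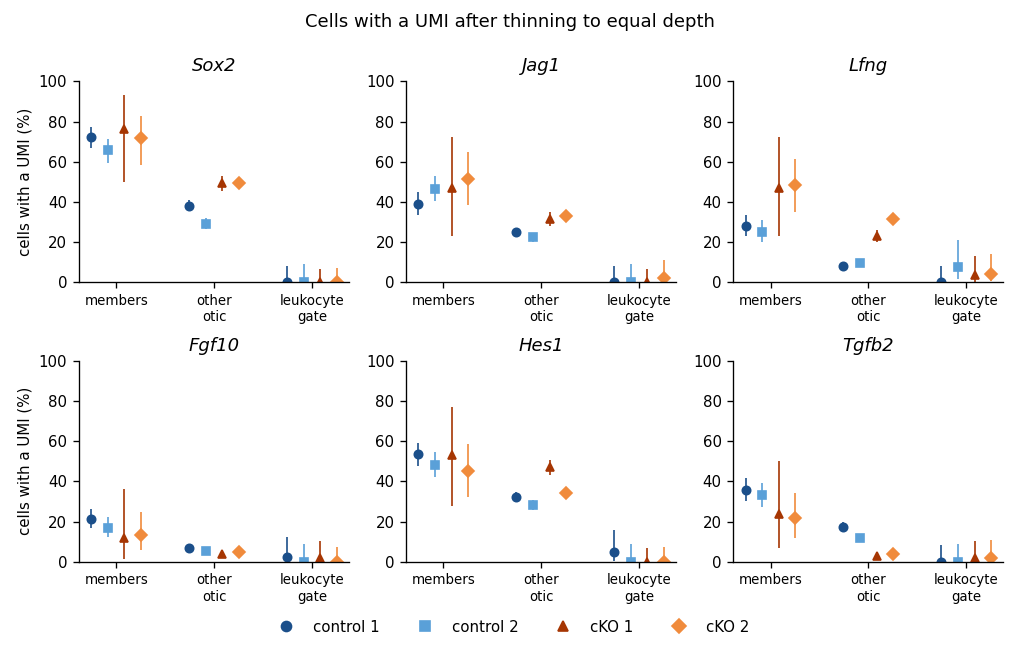
Percent of cells with at least 1 UMI after thinning to 10000 UMIs, for members, other otic-gate cells and the leukocyte gate; points are libraries and bars 95% exact binomial intervals. Sox2 is found in 65.6 to 76.5% of members and 29.2 to 49.5% of the other otic-gate cells, and in 0% of leukocyte-gate cells.

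In cKO, with only 17 and 61 members, 623 of 14159 genes differed between members and other otic-gate cells (4.4%; 1.77% higher and 2.63% lower). Of the prosensory list, 9 of 22 were higher in members and 0 lower, with a median of 0.56. Sox2 was found at 179.5 and 197.8 CPM in cKO members and 95.5 and 95.6 CPM in the other cells (log2 difference 0.96 ± 0.07, adjusted p = 1.1e-15). Prox1 (1.38 ± 0.20), Fgf10 (1.46 ± 0.27), Isl1 (1.29 ± 0.17), Bmp4 (1.14 ± 0.13), Hey1 (1.02 ± 0.11), Lfng (0.83 ± 0.11) and Jag1 (0.82 ± 0.11) were among the other genes called. With no limit on Sfrp2, Bmp4 turned to -0.25 and Isl1 fell to 0.31 and lost its call. That setting called 915 genes, of which 317 were among the 623. The count of all genes was 265 with DESeq2, 379 without cKO 1 and 246 without cKO 2.

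The step between members and other otic-gate cells itself differed between genotypes for 452 of 14159 genes (3.19%). The step is the signed log2 difference of members minus others, and its value was higher in cKO for 1.02% of genes and lower for 2.18%. On the prosensory list 2 values were higher and 4 lower in cKO. The lower values, all steps that shrank towards 0, were those of Lfng (difference of log2 differences -0.78 ± 0.13, adjusted p = 1.31e-05), Hes1 (-0.72 ± 0.11), Sox2 (-0.50 ± 0.08) and Eya1 (-0.42 ± 0.11). For Lfng, the level rose in both cell classes in cKO, from 40.5 and 36.1 to 79.8 and 93.7 CPM in members and from 13.3 and 12.1 to 42.7 and 51.0 CPM in the others. For Sox2, the level in members was at 225.2 and 182.9 CPM in control and 179.5 and 197.8 CPM in cKO, while in the other cells it was higher in cKO. The values of Gata3 (0.81 ± 0.17) and Isl1 (0.77 ± 0.18) were higher in cKO, and both calls were lost without cKO 2. For Isl1 the step widened from 0.51 to 1.29, and for Gata3 it went from -0.63 in control to 0.19 in cKO. With no limit on Sfrp2, only 126 of the 452 genes were still called. The count over all genes was 121 with DESeq2, 241 with no limit on Sfrp2, 274 without control 1, 191 without control 2 and 245 without cKO 2.

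Turning to genotype within the members, the targeted genes were both lower in cKO but far from absent. Tbx2 was found at 119.3 and 119.2 CPM in control members and 78.4 and 73.7 CPM in cKO members, a log2 difference of -0.62 ± 0.11 (cKO minus control; adjusted p = 0.0103). Tbx3 was found at 64.6 and 67.6 CPM against 45.6 and 34.2 CPM, a log2 difference of -0.78 ± 0.15 (adjusted p = 0.0151). Both calls were lost with DESeq2 and without cKO 2. In the other otic-gate cells the differences were -0.24 ± 0.07 for Tbx2 and -1.60 ± 0.13 for Tbx3, and the step of Tbx3 between members and others differed between genotypes (0.95 ± 0.17, adjusted p = 6.89e-05; lost without cKO 2). The kit reads the 3′ end of transcripts and the labels do not say which exons are floxed, so these levels do not measure the deletion. Another T-box gene, Tbx1, was lower too, at 27.1 and 23.7 CPM in cKO members against 55.1 and 61.4 CPM in control members (-1.19 ± 0.16), a call lost without cKO 2.

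In members, 609 of 11390 genes differed between genotypes (5.35%; 3% higher and 2.34% lower in cKO), and in the other otic-gate cells 5451 of 14963 did (36.4%; 19.5% higher and 16.9% lower). The latter sums hold many more cells. In members, DESeq2 called 295 genes; 382 were called without cKO 1 and 191 without cKO 2. With no limit on Sfrp2 the count was 2314. Several measures moved with genotype, and their part in these differences was not tested: mitochondrial UMIs were lower in cKO, and Xist, transcribed from the inactive X chromosome of females, was found at 406.6, 321.6, 212.3 and 0 CPM in members. Ddx3y, a Y-linked gene, was at 16.5, 20.2, 18.5 and 31.7 CPM. Members of cKO 1 and cKO 2 thus did not hold the same mix of male and female cells. The summed neural crest or glia markers were lower in both cKO libraries of members, as given above, with 3 of 5 tested genes called lower, among them Ednrb (-2.79) and Erbb3 (-1.02). The otic epithelial markers summed to 2023.5 and 1973 CPM in control and 1463 and 1645 CPM in cKO members, and 4 of the 9 tested were called lower: Pax2, Dlx5 (-0.95), Fbxo2 (-1.05) and Col9a1. Placodal neuron markers were lower in both cKO libraries as well, with 1 of 4 tested called lower. The leukocyte-marker UMIs noted above were in control members only, apart from 2 UMIs in cKO 2.

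Of the 22 prosensory genes, 3 were higher in cKO members (3% of all genes were) and 1 was lower (2.34% of all genes were), and 18 were not called; the median log2 difference was -0.02, as over all genes. Sox2 was not called (-0.05 ± 0.12, adjusted p = 0.869). Higher were Lfng (1.26 ± 0.13, adjusted p = 0.000346), Hey1 at 92.6 and 85.4 CPM against 43.8 and 44.5 CPM (1.03 ± 0.12, adjusted p = 0.000672), and Jag1 at 102.6 and 83.7 CPM against 62.0 and 67.5 CPM (0.52 ± 0.13, adjusted p = 0.0423). Fgf10 was lower, at 14.2 and 14.6 CPM against 25.9 and 25.8 CPM (-0.78 ± 0.20, adjusted p = 0.0454). The calls of Jag1 and Fgf10 were lost with DESeq2 and without either cKO library. Eya1 (-0.42 ± 0.13), Gata3 (-0.45 ± 0.16) and Notch1 (-0.46 ± 0.19) were not called. Bmp4 and Isl1 were close to 0 (0.11 and 0.02), but with no limit on Sfrp2 they were lower in cKO, by -1.34 and -0.89. In the other otic-gate cells, 10 of 22 prosensory genes were higher in cKO and 6 lower, against 19.5% and 16.9% of all genes there. In those cells Lfng differed by 2.05 ± 0.11, Hey1 by 0.96 ± 0.08, Jag1 by 0.65 ± 0.07 and Fgf10 by -0.56 ± 0.18.

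Tgfb2 was lower in cKO members, at 45.6 and 27.1 CPM against 97.3 and 91.7 CPM (-1.51 ± 0.18, adjusted p = 0.000712). In the other otic-gate cells it was at 4.04 and 4.71 CPM in cKO against 31.8 and 25.3 CPM in control (-2.52 ± 0.15). Its step between members and others was therefore larger in cKO (1.01 ± 0.21, adjusted p = 0.000768), but turned to -0.22 with no limit on Sfrp2. The cKO cells left out at that limit held Tgfb2 at 2.73 and 6.43 CPM, and their part in this turn was not tested.

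The 10 largest rises in cKO members were Pcp4, Plagl1, Fgf15, Ebf1, Wfdc3, Mgll, Ubb, Fgf3, Fst and Cxcl12. Ebf1, a transcription factor gene of neural differentiation, was found at 10.0 and 8.61 CPM in control and 112.5 and 105.4 CPM in cKO members, a log2 difference of 3.55 ± 0.15 (adjusted p = 2.19e-07). The other otic-gate cells went from 5.62 and 7.42 CPM to 18.2 and 12.4 CPM (1.39 ± 0.20), and the step differed between genotypes (2.31 ± 0.17, adjusted p = 1.91e-15). After thinning, Ebf1 was found in 7.02%, 6.72%, 35.3% and 33.3% of members. The ligand gene Fgf3 rose from 21.7 and 13.7 CPM to 168.1 and 100.8 CPM (2.81 ± 0.24), and by 2.69 ± 0.24 in the other otic-gate cells. Fgf15 rose by 3.58 ± 0.35, from 3.34 and 1.51 CPM to 42.7 and 26.2 CPM. The chemokine gene Cxcl12 rose by 2.75 ± 0.14 and by 3.48 ± 0.16 in the other otic-gate cells, so that its rise was not confined to members.

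Among the 10 largest falls were Hsd11b2, Gata2, Aldh1a3, Zfp536, Cntn5, Enpp2, C1qtnf12 and Itga4. Gata2, a zinc finger transcription factor gene, was found at 27.6 and 23.6 CPM in control and 1.42 and 4.58 CPM in cKO members (-2.64 ± 0.33, adjusted p = 0.000874), with -2.58 ± 0.12 in the other otic-gate cells. Aldh1a3 was at 32.9 and 50.1 CPM against 14.2 and 6.25 CPM (-2.26 ± 0.37), with -0.31 ± 0.09 in the others. Of the rises and falls named, Fst, Aldh1a3, Enpp2, C1qtnf12 and Itga4 lost their calls without cKO 2.

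Other lists within members are given by their counts, to be read against 3% of all genes higher and 2.34% lower. Of 8 ventral and lateral genes, 4 were lower in cKO and 0 higher, among them Pax2, a marker of medial otic epithelium, at 25.6 and 22.9 CPM against 67.3 and 84.4 CPM (-1.62 ± 0.19), and Sox9 (-0.88 ± 0.13). Pax2 lost its call with no limit on Sfrp2 (-0.14). In the otic matrix list 4 of 10 were lower and 0 higher, with Sparc at 64.1 and 116.2 CPM against 170.3 and 199.4 CPM (-0.85 ± 0.17) and the collagen genes Col9a3 (-1.28), Col9a1 (-0.62) and Col2a1 (-0.42). The calls of Col9a1 and Col2a1 were lost with DESeq2 and without either cKO library, and that of Col9a3 without cKO 2. The Hedgehog list had 3 of 8 lower, Gli1, Ptch1 (-1.64 ± 0.24) and Cdon (-1.22 ± 0.22), and 1 higher, Gas1 (0.49). Gli1 had no UMI in the cKO members and 4.87 and 3.84 CPM in the control members. All 3 of the lower calls were lost without cKO 2, and Gas1 turned to -0.136 with no limit on Sfrp2. Of 9 neuroblast genes, 4 were higher (Sox3, Ebf1, Fgf3 and Dll1) and 1 lower. The FGF list had 4 of 19 higher, among them the feedback inhibitor genes Spry1 (0.91) and Spry2 (1.12), and 1 lower. Of 20 S phase genes, 0 were higher and 1 lower, with a median of -0.06. In the other otic-gate cells 13 of the 20 were higher in cKO and 0 lower, against 19.5% of all genes higher there. The step between members and others was lower in cKO for 7 of the 20 and higher for 0, against 2.18% of all genes lower. In members, 2 of 20 G2 and M phase genes were higher and 0 lower, with a median of 0.27 against -0.02 over all genes. The G2 and M count was 10 without control 1, 1 without control 2 and 0 without either cKO library.

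**Figure D5:**
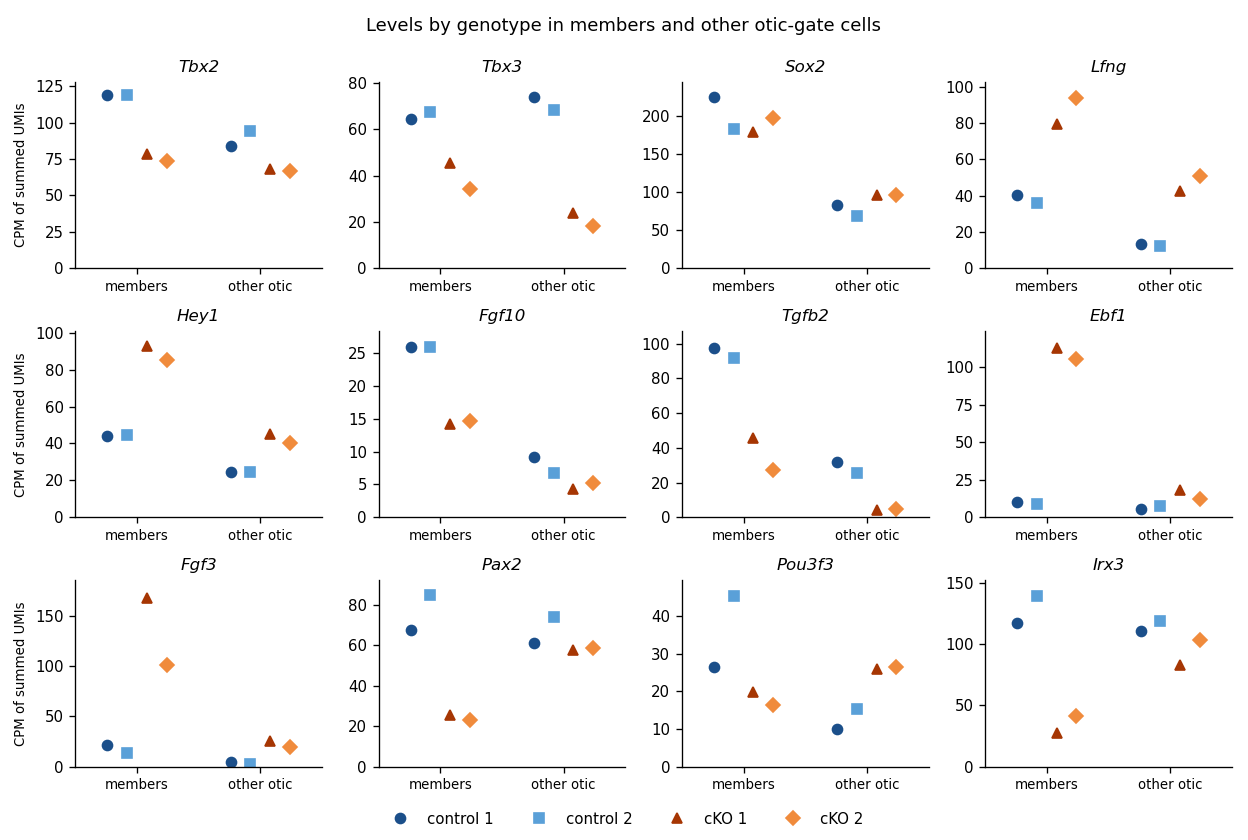
CPM of summed UMIs (axes from 0) of 12 genes in members and other otic-gate cells; each point is 1 library, control in blue and cKO in orange. Lfng, Hey1, Ebf1 and Fgf3 are higher and Tbx3, Fgf10 and Tgfb2 lower in both cKO libraries in each cell class, and Sox2 overlaps between genotypes in members.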

How the data were processed

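Single-cell RNA was measured in 4 libraries (10x Chromium 3′ v3.1), 2 control and 2 cKO, with 106769747 to 128205192 UMIs per library. The deposited values are raw UMI counts for barcodes called as cells. The authors used Cell Ranger 6.0.1 per the file headers and Cell Ranger 3.1.0, FastQC 0.11.4, Seurat 4.1.0 and mm10 per the submitters' processing notes. Cells with at least 1000 genes and at most 10% mitochondrial UMIs were kept: 4023, 3757, 3344 and 3861 cells. Doublets were not removed, since the Scrublet threshold called 3, 2, 5 and 0 cells; removing the highest scores was an alternative. Gene positions are from GENCODE vM21.

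UMIs were summed per library and class, so that libraries were the replicates, and tested two-sided with edgeR 4.0.16 in R 4.3.3 (filterByExpr, TMM, quasi-likelihood, prior count 1, the library as a block between classes). P-values were adjusted by Benjamini-Hochberg over all genes of a fit at 0.05. CPM is per total UMIs of the sum, and log2 differences are from the fit. The control comparison had 1 residual degree of freedom, so its estimates of spread lean on those of other genes. The plan asked for 20 member cells per library; cKO 1 had 17, so the cKO, genotype and interaction tests in members were added once the cell numbers were known, and their values are the less firm. Alternatives were DESeq2 1.42.0, RLE factors, no filter on low counts, stricter cell rules, comparison cells matched in depth, and each library left out. On simulated counts with 200 genes changed, the control fit recovered 86.7% of 2-fold and 92.9% of 4-fold changes, and the genotype fit in members 64.3% and 90.0%. The interaction fit recovered 53.7% and 72.0%. False calls numbered 13, 6 and 6 in these fits. The counts were drawn from the model that the fit assumes, with the same baseline in every sum, so recovery in the real sums was not measured. Replicate numbers were not shown to pair control and cKO libraries (correlation of deviations 0.035 over 11390 genes).

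Genes were named by rule: the rule's genes and given markers, the prosensory list, Tbx2 and Tbx3, the 10 largest called folds each way at 20 CPM or more with consistent direction, and up to 4 called genes per other list. Further genes named were chosen after their values were seen. Members and lists were chosen with earlier results of these data known. Some genes that the rule names are not reported here.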

Additional observations from a re-analysis of the deposited data

Results flagged for a closer look

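For 28 of the named genes, the log2 difference between members and other otic-gate cells was not the same in control and cKO by the interaction test (adjusted p under 0.05); values are the signed cKO difference minus the control difference, so a value above 0 can be a difference that grew or one that rose towards 0. Among the genes with the largest folds, the value was above 0 for Ehbp1 (2.54), Ebf1 (2.31), Lurap1l (2.20), Mgll (2.19), Rdh10 (2.08), Krt19 (1.62), Car4 (1.49), Fst (1.44), Phactr2 (1.35) and Ntf3 (1.31). Ebf1 (0.56 to 2.88) and Ntf3 (0.87 to 2.18) had larger differences in cKO. Others were lower in members in control and closer to the other cells in cKO, among them Lurap1l, Krt19, Car4 and Fst: Ehbp1 went from a log2 difference of -2.75 to -0.20, and Rdh10, which encodes a retinol dehydrogenase, from -1.75 to 0.33. The value was below 0 for Pou3f3 (-2.19), Aldh1a3 (-1.91), Pkdcc (-1.89), Irx5 (-1.67), Sp5 (-1.66), Vav3 (-1.62), Irx3 (-1.60), Pax2 (-1.55), Pantr1 (-1.32) and Galnt3 (-1.24). Here too the sign could turn: Pou3f3 went from 1.51 to -0.67, and the Iroquois homeobox gene Irx3 from 0.17 to -1.42. In members, Irx3 was found at 116.8 and 139.1 CPM in control and 27.1 and 41.6 CPM in cKO. The prosensory genes, markers and T-box genes concerned were Sox2 (-0.50), Lfng (-0.78), Hes1 (-0.72), Eya1 (-0.42), Isl1 (0.77), Gata3 (0.81), Tbx3 (0.95) and Tgfb2 (1.01). Of the 28 genes, 5 kept their sign but lost their calls with no limit on Sfrp2. With no limit on Sfrp2, Isl1, Tbx3 and Tgfb2 changed sign, and 14 of the named calls were lost without cKO 2.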

How the results depend on the processing

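Counts of called genes moved by over 1.5 times under some settings. Members against other otic-gate cells in control had 1727 calls, 393 with DESeq2, 2946 when compared only with cells of 0 or 1 Slitrk6 UMIs (chosen after seeing the data), and 1540 in the joint fit with the cKO libraries, which gave 536 to 594 without 1 control library. In cKO the 623 calls became 265 with DESeq2 and 246 to 495 without 1 library. For the interaction, 452 became 121 with DESeq2, 241 with no limit on Sfrp2 (chosen after seeing the data) and 191 to 334 without 1 library. For genotype in members, 609 became 295 with DESeq2, 1141 with no filter on low counts, 2314 with no limit on Sfrp2 and 191 to 812 without 1 library. With the replicate number as a block it was 1084. The numbers were not shown to pair the libraries. With no limit on Sfrp2, the comparison in cKO called 915 genes, of which 317 were among the 623. Of the 452 interaction calls 126 were kept under that setting, and of the 609 calls for genotype in members 549 were kept. DESeq2 gave 985 in place of 1798 calls against Otx-positive cells and 446 in place of 670 against Rorb-positive cells; leaving out a library there allowed values only. For genotype in the other otic-gate cells, 5451 became 2920 to 4423 without 1 library.

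Member shares were 13.5%, 11.4%, 1.17% and 2.67% with at least 4 Slitrk6 UMIs, and 21.4%, 20.2%, 8.69% and 11.04% with no limit on Sfrp2. With no such limit, signs turned in the cKO comparison for Bmp4 (-0.25), Tbx3 (-0.15), Mgll (-0.69), Hsd11b2 (0.034) and Pcp4 (-0.71), in the interaction for Bmp4 (-1.21), Isl1 (-0.21), Tbx3 (-0.0497) and Tgfb2 (-0.22), and in genotype within members for Bmp4 (-1.34), Isl1 (-0.89), Fzd7 (0.22) and Gas1 (-0.14). Without cKO 2, Cxcl12 turned to -0.00104 in the cKO comparison (0.635 without cKO 1), and without control 1 Dkk1 turned to -0.0407 against Rorb-positive cells (2.44 without control 2). With comparison cells of 0 or 1 Slitrk6 UMIs, genotype in the other cells turned for Fgf10 (0.11) and Bmp4 (0.26). The cause of these turns was not tested; the 17 cells of cKO 1 limit what the genotype tests in members can show.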

Other observations

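The ubiquitin gene Ubb was higher in cKO. In members it was found at 220.2 and 255.1 CPM in control and 1557 and 1798 CPM in cKO (log2 difference 2.88 ± 0.10), and in the other otic-gate cells the difference was 3.21 ± 0.10.

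Crabp1, for a retinoic acid binding protein, rose in cKO members from 55.2 and 45.7 CPM to 163.8 and 133.3 CPM (1.55 ± 0.14, adjusted p = 0.000129). The WNT pathway receptor gene Lgr4 went from 7.93 and 7.56 CPM to 28.5 and 33.7 CPM (2.08 ± 0.20), and the ligand gene Wnt7b from 19.65 and 19.66 CPM to 4.27 and 2.50 CPM (-2.64 ± 0.32), a call lost without cKO 2.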
